A study of Mus musculus with 6 samples.

Results

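The Hox cluster genes are the 39 protein-coding genes named Hoxa, Hoxb, Hoxc or Hoxd with a number in the RefSeq gene table of the assembly GRCm38 (mm10), out of 21887 protein-coding genes in all. The members were taken by name alone. DNA ends were mapped by BrITL, in which ends are labelled with a biotinylated nucleotide, pulled down with streptavidin and sequenced, so that a peak marks a place where labelled ends gathered. Treated cells were kept for 18 h in 1 µM ATR-45, which blocks ATR, a kinase that guards stalled replication forks, together with 0.2 µM aphidicolin, which slows the replicative DNA polymerases. Control cells had 18 h of the solvent DMSO. All 6 samples were passage-immortalised mouse embryonic fibroblasts that carried ATR+/- (a single working copy of the kinase gene) and expressed Bcl-xL, a blocker of cell death, so the controls shared both changes. The treated cells and the DMSO cells each gave 2 pull-downs and 1 input.

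The values came as 1 pooled peak list per condition, and gave no separate values for the samples. Replicate error is thus unknown, no test between conditions could be made, and a peak in 1 list alone is a fact about the lists. There were 491 treated peaks, with 454 bp as the median width, and 6444 DMSO peaks, with 2855 bp as the median width. The lowest −log10 q was 3.38 in the treated list and 18.5 in the DMSO list, so the weakest peaks of the lists were of unlike strength. Fold enrichment, a ratio of pull-down over background at the summit (the highest point of a peak), ran from 2.07 to 14.2 in the treated list and from 2.80 to 33.8 in the DMSO list. These folds and q values are the authors' own and describe peaks within their own list. The fragments counted at each summit were recovered from them, and every peak had at least 35 fragments in either list. Of 14 fibroblast marker genes, 0 had a treated summit and 4 (Vim, Fn1, Pdgfra and Twist2) had a DMSO summit, against 1.16% and 23.8% of all protein-coding genes, so both counts are near the background. Peaks of DNA ends do not measure expression and give no check of the cell type.

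Hox genes encode homeodomain transcription factors that give cells their position along the body axis. In mammals they lie in 4 clusters that arose by duplication, and genes with the same number in different clusters, the paralogues, are most alike. Within a cluster the order of the genes follows the order in which they act, with low numbers for the head and neck end and high numbers for the tail end and the distal limb. Fibroblasts keep a pattern of active and silent Hox genes from the body site they came from. Polycomb proteins hold the silent part of a cluster shut, and Trithorax proteins hold the active part open.

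A pair of promoters and a pair of miRNA genes of the clusters lay inside DMSO peaks, and their sequences are shown so that the places can be read beside the values below. RefSeq promoter sequences (250 bases before to 50 after the start site, GRCm38.p6) were matched for 22 of the 39 Hox genes, as 24 promoters. The promoters of Hoxa3 (chr6:52213018-52213317, minus strand) and Hoxd3 (chr2:74711743-74712042, plus strand) were those whose start site lay in a DMSO peak. The promoters of Hoxd4 (chr2:74721728-74722027, plus strand), with 4 CpG dinucleotides, and Hoxa13 (chr6:52260831-52261130, minus strand), with 45, lay in no peak and are shown as the low and high ends of the CpG range. Each is printed 5′ to 3′ on the strand of its gene, with CpG dinucleotides in capitals.
Hoxa3: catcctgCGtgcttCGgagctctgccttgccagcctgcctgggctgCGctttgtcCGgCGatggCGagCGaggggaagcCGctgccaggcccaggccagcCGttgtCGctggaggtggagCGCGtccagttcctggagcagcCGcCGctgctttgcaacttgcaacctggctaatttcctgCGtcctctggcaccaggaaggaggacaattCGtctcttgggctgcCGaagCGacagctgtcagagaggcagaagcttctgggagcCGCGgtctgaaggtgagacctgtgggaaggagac
Hoxd3: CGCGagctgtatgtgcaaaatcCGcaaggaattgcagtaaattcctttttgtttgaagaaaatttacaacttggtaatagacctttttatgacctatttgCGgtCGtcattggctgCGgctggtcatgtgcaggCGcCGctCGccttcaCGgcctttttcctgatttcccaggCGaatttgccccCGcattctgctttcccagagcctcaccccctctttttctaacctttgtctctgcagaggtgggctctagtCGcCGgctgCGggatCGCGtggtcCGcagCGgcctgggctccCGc
Hoxd4: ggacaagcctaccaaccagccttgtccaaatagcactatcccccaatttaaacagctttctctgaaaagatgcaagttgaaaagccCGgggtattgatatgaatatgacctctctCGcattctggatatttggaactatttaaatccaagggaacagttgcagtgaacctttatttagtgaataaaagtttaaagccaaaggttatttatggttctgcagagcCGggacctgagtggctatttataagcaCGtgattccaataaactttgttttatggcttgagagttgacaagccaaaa
Hoxa13: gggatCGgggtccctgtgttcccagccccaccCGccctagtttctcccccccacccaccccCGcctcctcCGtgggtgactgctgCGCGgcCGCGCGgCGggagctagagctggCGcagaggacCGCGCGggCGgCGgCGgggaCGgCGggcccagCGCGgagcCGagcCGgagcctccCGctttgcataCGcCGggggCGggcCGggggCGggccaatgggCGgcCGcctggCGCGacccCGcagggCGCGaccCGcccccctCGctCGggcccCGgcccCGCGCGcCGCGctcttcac

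The clusters hold 6 miRNA genes, and their mature RefSeq sequences (GRCm38.p6) fall into families by the seed, bases 2 to 8, given in capitals. Mir196b in the Hoxa cluster (chromosome 6, 52230081 to 52230165) and Mir615 in the Hoxc cluster (chromosome 15, 103014910 to 103015001) lay wholly inside DMSO peaks. The others, Mir196a-1 and Mir10a in the Hoxb cluster, Mir196a-2 in the Hoxc cluster and Mir10b in the Hoxd cluster, lay in none. The miR-196 family is known in mouse for cutting the mRNA of Hoxb8.
mmu-miR-196b-5p: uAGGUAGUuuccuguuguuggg
mmu-miR-196a-5p: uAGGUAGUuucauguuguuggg
mmu-miR-10a-5p: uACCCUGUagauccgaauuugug
mmu-miR-10b-5p: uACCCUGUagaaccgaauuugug
mmu-miR-615-5p: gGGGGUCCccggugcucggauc
mmu-miR-615-3p: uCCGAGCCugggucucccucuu
miR-196b-5p and miR-196a-5p share the seed AGGUAGU, and miR-10a-5p and miR-10b-5p share ACCCUGU.

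Of the 39 Hox genes, 1 (2.56%, exact Clopper-Pearson interval 0.0649 to 13.5%) had a treated summit inside its body or within 1 kb of an end, and 9 (23.1%, interval 11.1 to 39.3%) had a DMSO summit there. Over all 21887 protein-coding genes the shares were 1.16% in the treated list and 23.8% in the DMSO list. The DMSO share of the Hox genes was thus near that of all genes at this distance, and the treated share rested on a single gene. The intervals cover counting error only. Hox genes are short, with a median length of 3737 bp, against 17169 bp over all protein-coding genes. Genes called in the DMSO list had a median length of 25095 bp over all genes and 5925 bp among the Hox genes. Counted by any base of a peak in place of its summit, 1 Hox gene was touched in the treated list (background 1.18%) and 12 in the DMSO list (background 25.1%). The 3 added genes were Hoxa7, Hoxa9 and Hoxa10.

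The gene with a treated summit was Hoxc13, which is known for its role in hair and nail formation. The DMSO summits lay at genes that included Hoxa3, Hoxa4, Hoxb7, Hoxb8, Hoxc5, Hoxc6, Hoxc13 and Hoxd3. No gene of paralogue groups 9, 10, 11 and 12 had a summit in either list. By number, of 15 genes of groups 4 to 8, 0 had a treated summit and 5 had a DMSO summit. The shares over all protein-coding genes were 1.16% and 23.8%. Of 16 genes of groups 9 to 13, Hoxc13 alone had a summit, in both lists. By any base of a DMSO peak, 3 of these 16 were touched (background 25.1%). No difference between the groups was tested. The only paralogues that shared a DMSO summit were Hoxa3 and Hoxd3, while Hoxb3, the other member of their group, had none.

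The clusters differed in how much of them the DMSO peaks filled. No treated summit lay between the outer ends of any cluster, a total of 492.1 kb, and 12 DMSO summits did. Treated summits were rare everywhere, at 0.0182 per 100 kb over the genome, so their absence from a stretch of this length is near the background and is no result about the clusters. The Hoxa cluster (chromosome 6, 52155367 to 52260880) had 7 DMSO summits, the Hoxc cluster (chromosome 15, 102921131 to 103036856) had 3, and the Hoxb cluster (chromosome 11, 96194316 to 96368254) and the Hoxd cluster (chromosome 2, 74668225 to 74765142) had 1 each. Inside DMSO peaks lay 18.3% of the bases of the Hoxa cluster, 12.9% of Hoxc, 5.34% of Hoxd and 1.98% of Hoxb. That order rests on weaker peaks: with peaks at or above the list's median fold alone, it was 6.81% of Hoxa, 12.9% of Hoxc, 0% of Hoxd and 1.98% of Hoxb. With all DMSO peaks, the share over the 4 clusters was 8.71%, against 0.722% of the genome. Over Hox bodies with 1 kb on each side it was 12.1%, against 1.32% over all protein-coding genes taken the same way. Summits lay at 2.44 per 100 kb in the clusters and 0.238 per 100 kb over the genome in the DMSO list. Hox genes are packed, and their bodies filled from 43.2% of the Hoxb cluster to 69.8% of the Hoxa cluster, so a count per gene and a count per base weigh the same peaks differently.

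**Figure D1:**
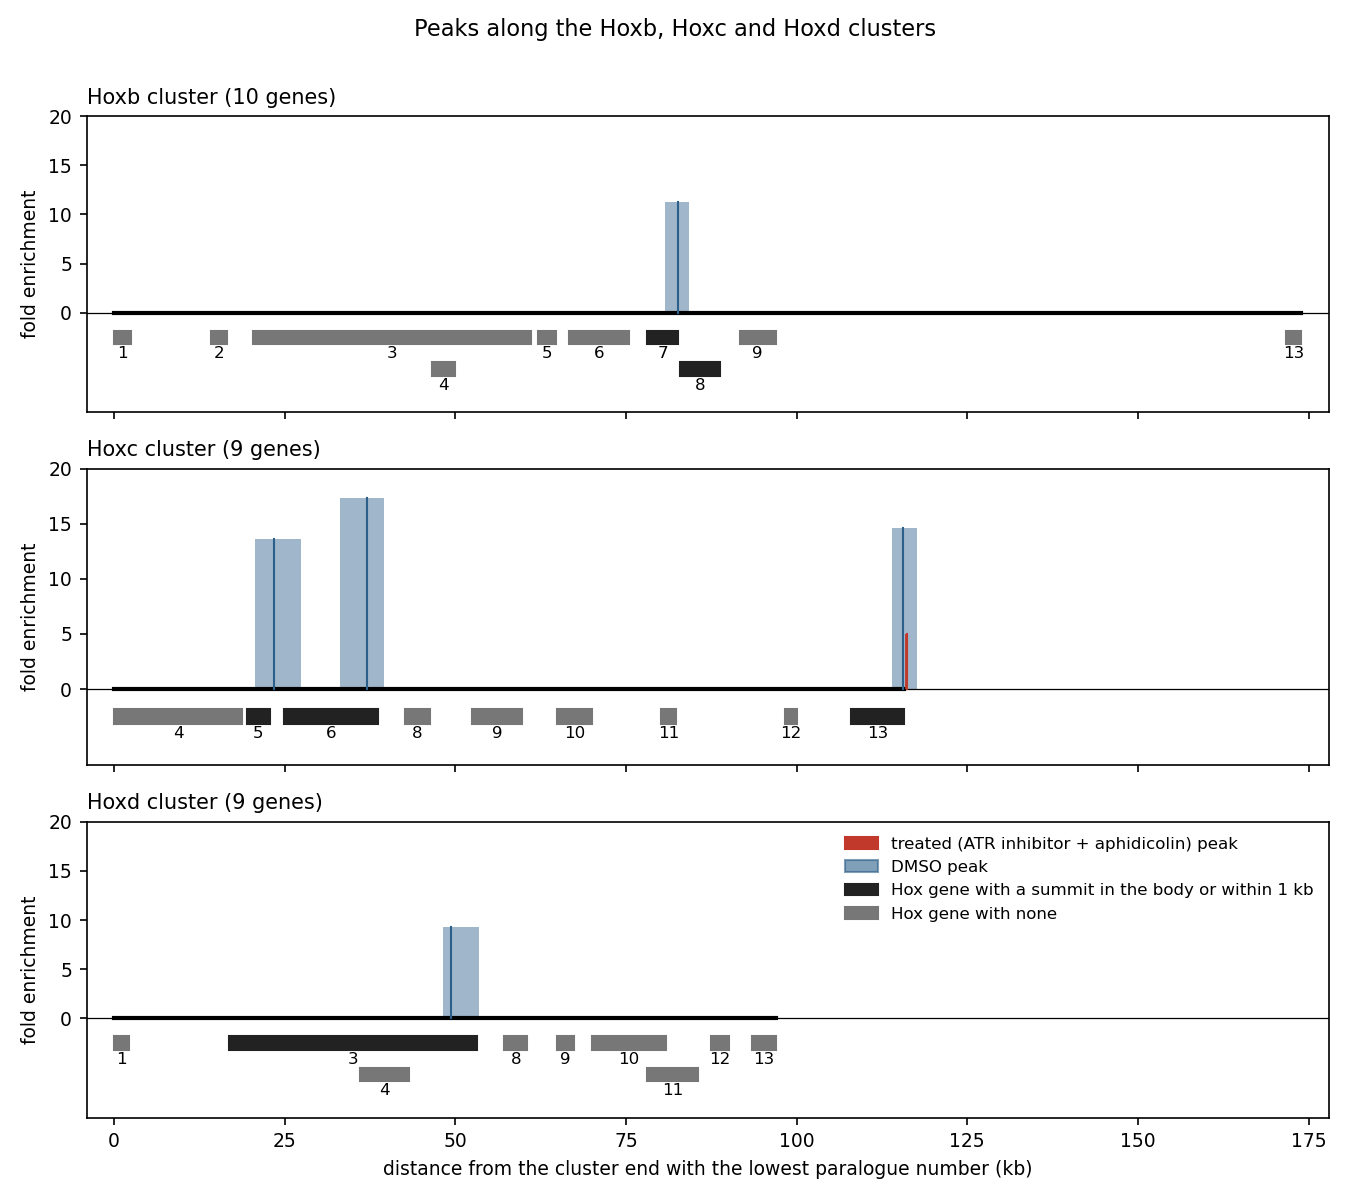
Peaks along the Hoxb, Hoxc and Hoxd clusters. The horizontal axis is the distance in kb from the cluster end with the lowest paralogue number, the vertical axis is the authors' fold enrichment, bars span the peaks, thin lines mark summits, and boxes below are genes labelled by paralogue number. The Hoxb and Hoxd clusters have 1 DMSO peak each and the Hoxc cluster has 3, and the treated peak lies inside the DMSO peak at Hoxc13.

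Both conditions had a peak at the outer end of the Hoxc cluster. The treated peak spanned 102920620 to 102920975 on chromosome 15, with its summit 426 bp outside the nearer end of Hoxc13. It had a fold of 5.03, a −log10 q of 3.72 and 35 fragments at its summit (exact Poisson interval 24.4 to 48.7). That fragment number was the lowest in the treated list, and by fold the peak ranked 296 of 491. The DMSO peak spanned 102919144 to 102922920, with a summit 82 bp inside the same end of Hoxc13, a fold of 14.6, a −log10 q of 40.7 and 59 fragments (interval 44.9 to 76.1). The treated peak lay wholly within the DMSO peak and covered 9.43% of it, and the summits were 508 bp apart. Of all treated peaks, 200 of 491 (40.7%) overlapped a DMSO peak by at least 1 bp. The folds belong to lists with unlike backgrounds, 5.14 fragments in the treated pull-down and 2.88 in the DMSO pull-down, and were not set against each other as a change. For the other clusters the nearest treated summit lay 977 kb from Hoxa, 820 kb from Hoxb and 775 kb from Hoxd.

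Hoxa3, which is needed for the thymus and parathyroid glands, held 5 DMSO summits in a body of 44009 bp that the table draws across Hoxa4, Hoxa5 and Hoxa6. A group of 3 narrow peaks lay in the part with low coordinates, with folds of 9.77, 9.53 and 8.70 and widths of 1443, 1502 and 1754 bp. They followed each other with gaps of 730 and 189 bp, and their summits lay 177 bp from an end of the non-coding gene Gm15050, 266 bp from an end of LOC115490409 and 707 bp from an end of 5730596B20Rik. Whether they are 3 sites or parts of 1 was not tested. The peak of highest fold in Hoxa3 (13.9, −log10 q 38.2, 56 fragments) spanned 52190431 to 52193292 and had its summit 538 bp outside Hoxa4, so it counts for both genes. The last had its summit 254 bp downstream of the Hoxa3 start site shown above, with a fold of 9.31, a −log10 q of 23.7 and 45 fragments, and it reached the non-coding gene Mira.

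No Hox gene lay within 1 kb of the DMSO summit at Mir196b, and none of the other 11 DMSO summits was in this position. The peak spanned 52228340 to 52232106, between Hoxa9 and Hoxa10, with a fold of 9.53, a −log10 q of 20.6 and 38 fragments (exact Poisson interval 26.9 to 52.2). Its summit, at 52230088, lay inside the hairpin, 7 bp from its end. The nearest end of a Hox gene, that of Hoxa10, was 1109 bp away, just past the 1 kb limit, while the farthest summit just inside the limit was that of Hoxc5 at 604 bp. Hoxa9 had no summit, nor had Hoxa11 and Hoxa13, which shape the limb and the urogenital tract, and beyond Mir196b the last 30.8 kb of the cluster held none. Of the 6 miRNA genes of the clusters 2 were touched by a DMSO peak, against 5.78% of all 1228 miRNA genes of the table.

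The Hoxc cluster had 3 DMSO peaks, all with folds above the list's median of 10.99. The peak in Hoxc6, a gene of thoracic identity, spanned 102997334 to 103003718 with a fold of 17.3, a −log10 q of 52.5 and 70 fragments (exact Poisson interval 54.6 to 88.4). Its summit lay 1589 bp inside the gene from the nearer end. The peak at Hoxc5 spanned 103009473 to 103016255, the widest of the clusters at 6783 bp, with a fold of 13.7, a −log10 q of 37.0 and 55 fragments. Its summit lay between Hoxc6 and Hoxc5, 604 bp outside Hoxc5, and 1506 bp from the Mir615 hairpin that the peak also covered. The DMSO summits in Hoxc6 and Hoxc13 were 78.6 kb apart, with no summit of either list between them. That stretch holds Hoxc8, Hoxc9, Hoxc10, Hoxc11, Hoxc12 and the non-coding gene Hotair. Hoxc4 had no summit within 1 kb.

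The Hoxb and Hoxd clusters had 1 DMSO peak each. The Hoxb peak spanned 96284021 to 96287458 on chromosome 11, across the short space between Hoxb8 and Hoxb7, with a fold of 11.2, a −log10 q of 27.4 and 45 fragments (exact Poisson interval 32.8 to 60.2). Its summit lay 31 bp inside Hoxb7, 310 bp outside Hoxb8 and 3730 bp downstream of the Hoxb8 start site of the promoter table. Hoxb1, Hoxb2, Hoxb3, Hoxb4, Hoxb5, Hoxb6, Hoxb9 and Hoxb13 had none, and the stretches beside the peak, 91.3 and 82.6 kb long, held no other summit. The Hoxd peak spanned 74711711 to 74716888 on chromosome 2 and covered the Hoxd3 start site, but its summit lay 3745 bp downstream of it. That summit was inside Hoxd3os1, a non-coding gene. With a fold of 9.29, a −log10 q of 19.5 and 37 fragments (interval 26.1 to 51.0), it had the lowest −log10 q of the 12 DMSO peaks. Hoxd1, Hoxd4, Hoxd8, Hoxd9, Hoxd10, Hoxd11, Hoxd12 and Hoxd13, of which Hoxd13 is known for its role in digit formation, had no summit.

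**Figure D2:**
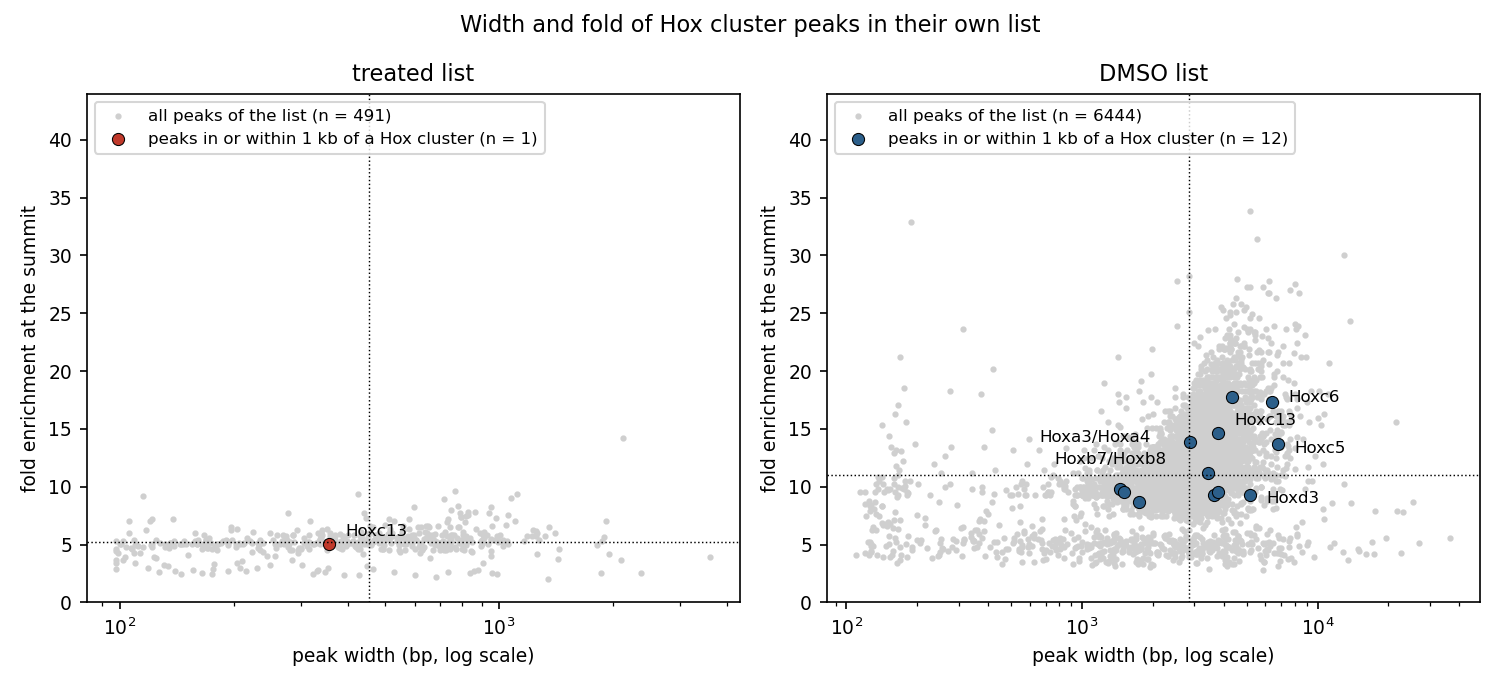
Peak width in bp on a log axis against the authors' fold enrichment, for the treated list (left) and the DMSO list (right). Grey points are all peaks of the list, coloured points are peaks in or within 1 kb of a Hox cluster, and dotted lines are the list's medians. The treated peak lies below both medians of its list, and the DMSO peaks spread over fold from 8.70 to 17.8.

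Within the DMSO list the 12 Hox cluster peaks spanned weak and strong ones. Their fold ranged from 8.70 to 17.8 and 6 of 12 were above the list's median of 10.99. Their width ranged from 1443 to 6783 bp with a median of 3703 bp, and 9 of 12 were wider than the list's median. The fold was taken over the genome-wide background of 2.88 fragments for 10 of 12, and over a higher local background for the peaks in Hoxa3 with folds of 8.70 and 9.31. Summits inside a Hox body made up 10 of the 12, while 49.1% of all DMSO summits lay inside a protein-coding gene. These shares cannot be compared as they stand. Hox bodies fill 43.2 to 69.8% of the clusters and Hoxa3 alone held 5 of the summits, and what sets the shares apart was not tested. At most 1 kb from where a Hox gene starts or ends lay 5 of the 12. For protein-coding genes at large this held for 57.2% of DMSO summits. With the non-coding genes of the table counted as well, 11 of the 12 lay within 1 kb of a gene end, against 62.9% of the DMSO list, and Hoxc6 held the exception.

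Non-coding genes of the clusters were often the nearest annotation. Of 25 long non-coding genes inside or across the edge of a cluster, 0 had a treated summit and 8 had a DMSO summit in the body or within 1 kb, 7 of them in the Hoxa cluster and 1 (Hoxd3os1) in the Hoxd cluster. Over all 12727 long non-coding genes of the table the shares were 0.495% in the treated list and 7.63% in the DMSO list, and some of the 8 genes share a summit, so they are not independent. Those in the Hoxa cluster included Gm15050, LOC115490409, 5730596B20Rik, Hoxaas3 and Gm52902. They overlap the Hox genes, and the peaks carry no strand, so ends on either gene cannot be told apart. Within 100 kb beside the clusters the only coding gene with a summit was Lnpk, which encodes a protein of the endoplasmic reticulum, 89.2 kb from the Hoxd cluster in the DMSO list (fold 9.53). The same summit lay 22 bp from an end of the non-coding gene 4930445N08Rik. Evx1 and Evx2, homeobox genes beside the Hoxa and Hoxd clusters, had none.

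The Hoxa3 and Hoxd3 promoters, with start sites in DMSO peaks, lay within the range of the other Hox promoters in CpG number. The Hoxa3 promoter had 64.0% G and C and the Hoxd3 promoter 54.0%, each with 20 CpG dinucleotides. Of 24 Hox promoters, 0 had a start site in a treated peak (background 0.289% of 32851 promoters) and 2 had one in a DMSO peak (8.33%, background 16.4%). The 22 Hox promoters outside DMSO peaks had from 4 to 45 CpG, with a median of 13.5. Over all promoters the median was 25 CpG with a start site in a DMSO peak and 5 without. Hoxa13 had 45 CpG and no peak. Of the motifs searched on both strands in these 300 bases, GGGCGG, a box bound by Sp factors, was in neither printed promoter with a peak, in 10 of 24 Hox promoters and in 35.7% of all. CCAAT was in the Hoxd3 promoter, in 15 of 24 and in 37.4% of all. TATAAA was in 4 of 24 and 13.6% of all, CACGTG in 5 and 7.15%, TGATTNAT, a form of the Hox and Pbx joint site, in 2 and 3.22%, and TTTATNG in 2 and 10.9%. These 4 were in neither the Hoxa3 nor the Hoxd3 promoter. A match is a description and no site of binding.

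Genes that act with or upon the Hox genes were counted the same way. Of 9 cofactor genes of the MEIS, PBX and PKNOX families, which bind DNA with Hox proteins, 1 had a treated summit (Pknox1, fold 5.99) and 4 had a DMSO summit (Pknox1, 25.3, Meis2, 25.1 for the stronger of 2, and Pbx3, 14.1, among them). Of 27 Polycomb genes, 1 had a treated summit (Ezh2, which encodes a histone methyltransferase, fold 5.30) and 20 had a DMSO summit (among them Ezh2 at 20.5 and Suz12 at 16.6). The other Polycomb genes with a DMSO summit were Eed, Jarid2, Rnf2, Bmi1, Pcgf1, Pcgf2, Pcgf3, Pcgf5, Cbx6, Cbx7, Cbx8, Phc1, Phc2, Phc3, Rybp, Mtf2, Phf1 and Phf19. Of 17 genes in a broadly drawn list of Trithorax and associated genes, 1 had a treated summit (Kmt2c, 5.03). In the DMSO list 12 of them had a summit (among them Kmt2a, which maintains Hox activity, at 12.4). The other genes of this list with a DMSO summit were Kmt2b, Kmt2c, Kmt2d, Men1, Psip1, Kdm6a, Kdm6b, Dot1l, Mllt1, Mllt3 and Hcfc1. Its members Wdr5, Ash2l, Rbbp5, Dpy30 and Uty had none. Of 9 genes of chromosome architecture, 2 had a treated summit (Stag2 and Maz) and 6 had a DMSO summit (Ctcf at 15.8, with Smc3, Stag1, Stag2, Nipbl and Maz). Of 20 other homeobox genes of limb and mesenchyme, 0 had a treated summit and 3 had a DMSO summit (among them Six4 and Emx2), and of 8 ParaHox and Evx genes 0 had either. These counts are shown beside the background shares of 1.16% and 23.8%, with no test of a difference.

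**Figure D3:**
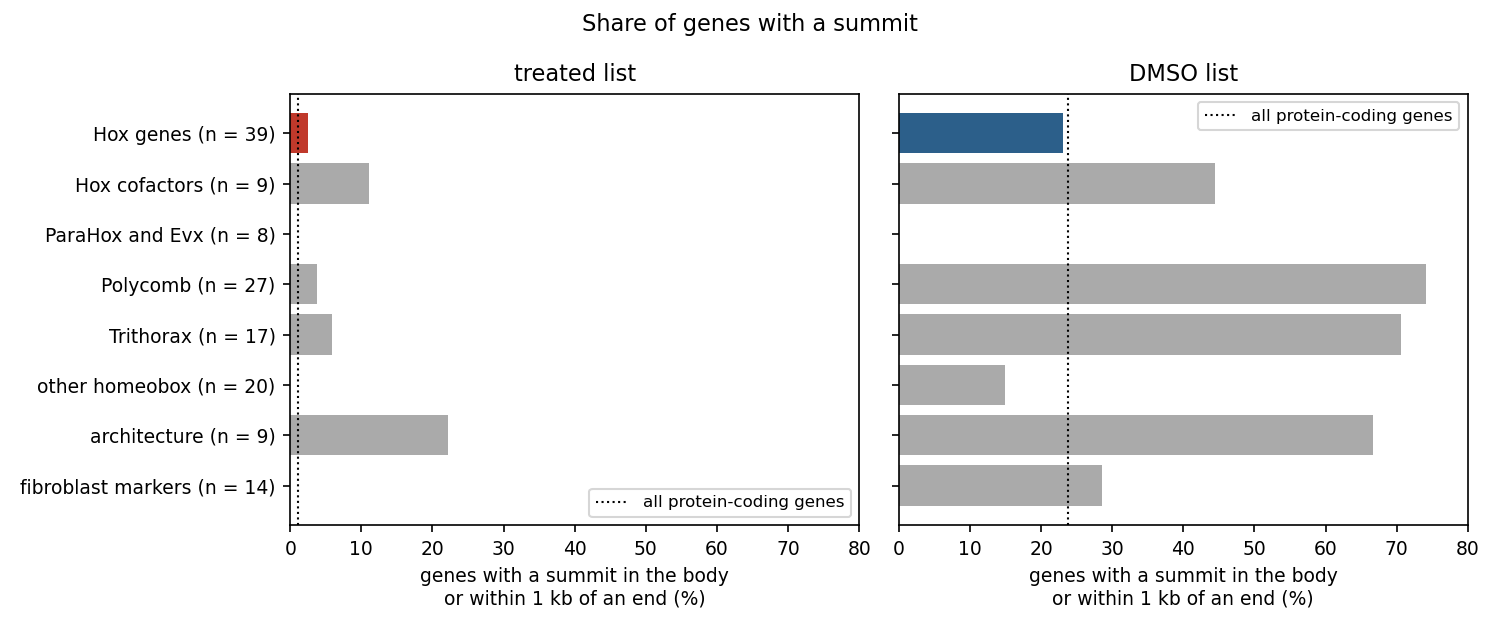
Share of genes, in percent, with a summit in the body or within 1 kb of an end, for the treated list (left) and the DMSO list (right). Bars are the gene lists, the dotted line is the share of all protein-coding genes, and n is the number of genes. The Hox genes lie at 2.56% in the treated list and 23.1% in the DMSO list.

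The names of the peaks carry running numbers with gaps, which reach 5400 in the treated list and 64322 in the DMSO list. Read as the count of calls before the authors chose the deposited peaks, 9.09% of treated and 10.0% of DMSO calls were deposited. Within the Hoxa cluster the DMSO numbers spanned 31, of which 7 were deposited, and from Hoxc13 to Hoxc5 they spanned 33, of which 3 were deposited. Numbers that are absent from the list used here thus fell between deposited DMSO peaks of both clusters, at positions that the list does not give.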

How the data were processed

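DNA ends of mouse embryonic fibroblasts were measured by BrITL in 4 pull-down and 2 input samples. The submitters' processing notes list MACS2 2.1.0, Picard 1.141, STAR 2.5.2a, bcl2fastq 2.17.1.14 and SAMtools 0.1.19 with the build mm10, without roles or settings. Per the file's peak names, all pull-downs were called together against all inputs. The labels give 2 pull-downs and 1 input per condition. The authors' deposited values per peak are a fold enrichment (a ratio), a −log10 p and a −log10 q, and a deposited score, the whole part of 10 times the −log10 p in 100% of peaks. Read totals are not given in the sources used here, so the depth is unknown.

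A summit was column 2 plus column 10 plus 1. Genes, promoters and miRNAs came from RefSeq tables of GRCm38.p6, the assembly of mm10, and gene lists were matched by symbol with every name found. Clusters ran from the lowest start to the highest end of their Hox genes. A fold was read as the scaled pull-down count plus 1 over the scaled background plus 1. The scaling step found was 0.439 in the treated list and 0.805 in the DMSO list. Fragments at summits were obtained by inverting the caller's formulas, accepting whole multiples of a step within 0.02, which held for 100% of peaks. On 300 simulated peaks per list, made with these same formulas, 100% were right. That checks the code and cannot show that the formulas hold for these files. Intervals are exact at 95%. All 39 Hox genes are counted, and those with a summit in or within 1 kb of them are given with peak values, as are other genes of the clusters, of 100 kb beside them and of the lists by name. Some genes in these counts are not reported here by name. The Hox genes follow from their names, but they were chosen as a subject, and the lists were written, with earlier results of these data known. No tests were made. Alternatives varied the distance, the cluster bounds, the peak threshold and the overlap. Python 3.11.15, NumPy 2.4.6, pandas 2.3.3 and SciPy 1.17.1 were used.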

Additional observations from a re-analysis of the deposited data

How the results depend on the processing

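Of 23 counts made under alternatives, 14 stayed within 1.5 times of the value reported, counts of 0 that stayed 0 among them. With the shares of bases added, 16 of 31 alternative values stayed and 15 moved. A share stayed if it lay in the exact interval of the reported share, counted over bases. The count of Hox genes with a treated summit was 0 with gene bodies alone, 0 at or above the list's median fold and 0 at a −log10 q of at least 5, so the single gene, Hoxc13, rests on the 1 kb distance and on a weak peak. The count with a DMSO summit was 15 of 39 within 5 kb (background 26.6%) and 21 of 39 within 10 kb (background 29.9%). At these wider distances the Hox share was above that of all genes, so the likeness seen at 1 kb did not hold. Hox genes are packed, so 1 summit can count for several of them there, and no difference was tested. Treated summits in the clusters were 1 with 10 kb and 1 with 100 kb added at each end. DMSO summits in the clusters were 6 at or above the median fold and 5 at or above the median −log10 q. With 10 kb added, DMSO peaks covered 15.4% of Hoxa, 1.77% of Hoxb, 12.5% of Hoxc and 4.43% of Hoxd, and with peaks at or above the median fold 6.81% of Hoxa, 12.9% of Hoxc, 1.98% of Hoxb and 0% of Hoxd, so that Hoxc in place of Hoxa had the highest share. No paired analysis was possible because each list pools its samples.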
